A study of Rattus norvegicus with 8 samples.

Results

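The 10 genes described here make reactive oxygen, nitric oxide or antimicrobial proteins at the surface of the gut, or carry antibody across it. They are Duox2, Duoxa2, Nox1, Noxo1, Nos2, Reg3b, Reg3g, Lcn2, Slpi and Pigr, and they were read from every probe that carries the gene's symbol in the scanner files. The symbols found 12 of 30367 probes on the array, 3 of them for Pigr and 1 for each other gene. All 12 probes passed the filter on dim signal, so all 10 genes were among the 18170 genes tested.

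Epithelial cells of the colon defend themselves against bacteria in several ways. DUOX2 and NOX1 are membrane enzymes that make hydrogen peroxide and superoxide, and each needs a partner protein: DUOXA2 brings DUOX2 to the surface, and NOXO1 organises the active NOX1 complex. NOS2 makes nitric oxide during inflammation, the REG3 lectins and lipocalin-2 act on bacteria, SLPI inhibits neutrophil proteases, and PIGR carries IgA and IgM into the lumen.

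Colon RNA came from female Wistar rats aged 14 weeks, which had eaten their diet for 8 weeks, and each of 4 groups had 2 arrays of 1 colour. The groups were colitis on a diet rich in alpha-linolenic acid (ALA), the n-3 fatty acid of plant oils, colitis on fish oil (source of long-chain n-3 fatty acids), colitis on sunflower oil (the n-6 diet), and healthy colon, also on sunflower oil. Colitis was brought on with dextran sulfate sodium, a polymer that injures the lining of the colon, at 5% for 7 days. The study set both n-3 diets against the n-6 diet. Pooled RNA of 6 rats was used, out of 10 rats in a colitis group and 6 healthy rats. If each array holds a full pool, both healthy arrays carry the same animals. Whether a colitis group had 1 pool or 2 is not in the labels, and the p-values therefore measure only the spread between arrays. The number of arrays limits the precision of every value below.

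The 8 arrays shared 1 slide and 1 scan. ALA and healthy arrays filled row 1, n-6 and fish oil arrays filled row 2, while ALA and fish oil arrays filled columns 1 and 2 and healthy and n-6 arrays columns 3 and 4. Every comparison thus also sets 1 slide row or column against another, and the groups cannot be told apart from their slide position. Between 16402 and 21279 probes were well above background on an array, with the lowest number on fish oil replicate 1. The 9 markers of colon epithelium were well above background on every array. Their mean level was 4.20 and 4.29 in ALA colitis, 5.16 and 4.91 in fish oil colitis, 2.94 and 4.74 in n-6 colitis, and 4.79 and 4.79 in healthy colon. The lowest value was that of n-6 replicate 1. The mean level of 5 red cell markers was -0.08 and 0.23 in ALA colitis, -0.58 and -0.44 in fish oil colitis, 3.87 and 3.25 in n-6 colitis, and -0.60 and -0.96 in healthy colon, so both n-6 arrays stood apart. That of 6 macrophage markers was -1.48 and -1.67 in ALA colitis, -1.06 and -1.50 in fish oil colitis, -0.79 and -1.10 in n-6 colitis, and -2.63 and -2.27 in healthy colon. This mean was higher on all 6 colitis arrays, though Cd163, Csf1r, Adgre1 and Mrc1 each overlapped with healthy colon on some of them. The part of these markers in the results below was not tested. Across genes, 7 of the 8 arrays had a higher r with an array from a different group than with their own replicate, where r was 0.948 to 0.971; fish oil replicate 1 was the exception. In whole tissue, fewer epithelial cells and less RNA per cell cannot be told apart.

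Each level is a log2 signal less the 75th percentile of its array, and differences are between group means on that scale. In each pair of values, replicate 1 stands first. No difference of a member between groups passed the threshold of 0.05 on limma's adjusted p in any of 7 comparisons, so the differences below are values and not calls. The plot of member levels gives all the arrays.

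**Figure D1:**
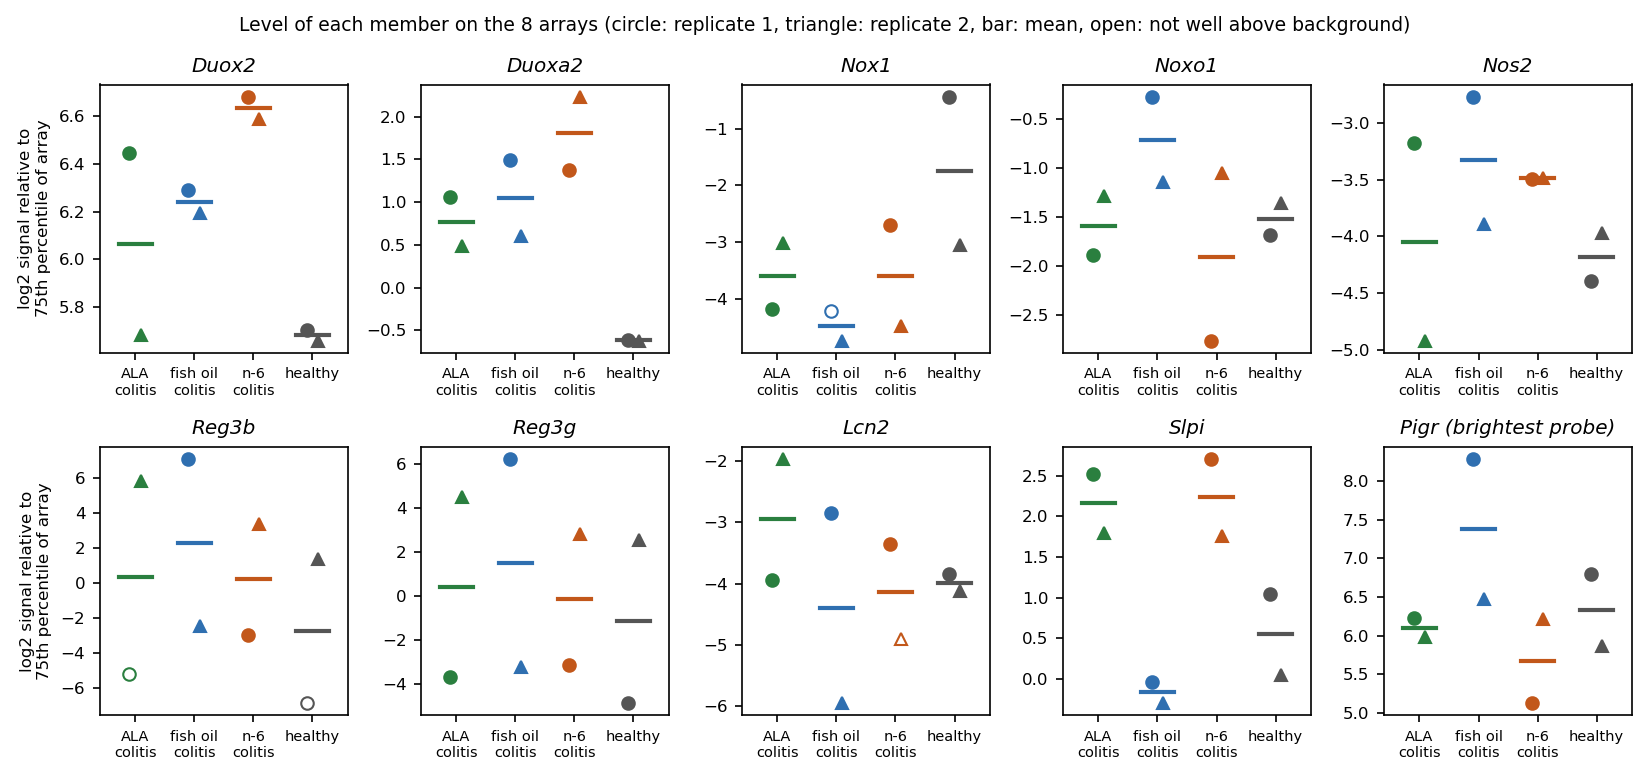
Level of each member gene (log2 signal relative to the 75th percentile of its array) in ALA, fish oil and n-6 colitis and in healthy colon. Circles are replicate 1, triangles replicate 2, bars the mean of both, and open symbols are not well above background; each panel has its own axis. Duoxa2 is above both healthy arrays on all 6 colitis arrays, and Reg3b and Reg3g differ more between the arrays of a group than between groups.

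Duoxa2, the maturation factor of DUOX2, separated the colitis arrays from the healthy arrays. Its level was 1.06 and 0.48 in ALA colitis, 1.50 and 0.60 in fish oil colitis, 1.38 and 2.23 in n-6 colitis, and -0.61 and -0.62 in healthy colon. All 6 colitis arrays were above both healthy arrays, and the highest value was that of n-6 replicate 2. The difference was 2.42 (SE 0.451, adjusted p = 0.125) between n-6 colitis and healthy colon, a 5.36-fold higher mean signal. It was 1.38 (SE 0.451, adjusted p = 0.731) for ALA colitis and 1.66 (adjusted p = 0.994) for fish oil colitis, both against healthy colon. The mean of the 3 colitis groups was 1.82 above healthy colon (SE 0.368, adjusted p = 0.307), and leaving out each array in turn kept this value between 1.67 and 1.97. Among the colitis groups, ALA colitis differed from n-6 colitis by -1.04 (SE 0.451, adjusted p = 0.855), with no overlap of the arrays. Fish oil colitis differed from n-6 colitis by -0.76, and there the arrays overlapped.

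Duox2, the oxidase itself, had a narrower range. Its level was 6.44 and 5.68 in ALA colitis, 6.29 and 6.19 in fish oil colitis, 6.68 and 6.59 in n-6 colitis, and 5.70 and 5.66 in healthy colon. Both n-6 arrays were above the other 6, both fish oil arrays were above healthy colon, and ALA replicate 2 lay between the healthy arrays. From high to low, the means were 6.63 ± 0.066 in n-6 colitis, 6.24 ± 0.069 in fish oil colitis, 6.06 ± 0.54 in ALA colitis and 5.68 ± 0.031 in healthy colon (SD, n = 2 each). The n-6 and healthy means were 0.95 apart (SE 0.337, adjusted p = 0.282), the fish oil and n-6 means differed by -0.39 (adjusted p = 0.601), and the ALA and fish oil means differed by -0.18 (adjusted p = 0.861). The pooled spread of Duox2 within groups, 0.27, was the smallest of the 10 genes, and 76.2% of all genes tested had a larger spread.

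The genes of the oxidase and its partner are neighbours on chromosome 3 in the RefSeq annotation of the GRCr8 assembly, with Duoxa1 next to Duoxa2. On the rn4 build used for the probes, the Duox2 probe lies at chr3:109059361-109059420 on the minus strand and the Duoxa2 probe at chr3:109081149-109081208 on the plus strand. The first 30 bases of both probes are shown because the pair is compared array by array, and they come from different strands and different sequence.
Duox2: gctggtaggcagctgggtttgtttctgggc
Duoxa2: aatgtcaaagactgtagcaatcaggctgac
Over the 8 arrays the levels of both genes had a Pearson r of 0.87, a description that rests on 4 groups. The other oxidase of the family, Duox1, differed by 1.99 between n-6 colitis and healthy colon (SE 0.489, adjusted p = 0.184). Its level was -3.16 and -3.76 in ALA colitis, -5.75 and -4.55 in fish oil colitis, -1.97 and -2.66 in n-6 colitis, and -4.16 and -4.46 in healthy colon. Both n-6 arrays were above the other 6. Fish oil replicate 1 was not well above background, so its Duox1 value is a reading near background.

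Nox1, the superoxide-forming oxidase of colon epithelium, was read by 1 probe that has no position on rn4, and was highest on healthy replicate 1. Its level was -4.18 and -3.01 in ALA colitis, -4.21 and -4.73 in fish oil colitis, -2.70 and -4.48 in n-6 colitis, and -0.44 and -3.05 in healthy colon. The fish oil arrays were below both healthy arrays, and replicate 1 of fish oil was not well above background. The ALA and n-6 arrays overlapped with healthy colon. Fish oil colitis differed from healthy colon by -2.72 (SE 0.949, adjusted p = 0.994), and without healthy replicate 1 or 2 this ran from -4.03 to -1.42. The mean of the 3 colitis groups differed from healthy colon by -2.14 (SE 0.774, adjusted p = 0.566), and by -0.83 without healthy replicate 1.

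Noxo1, the organiser of the NOX1 complex, did not follow Nox1. Its level was -1.88 and -1.29 in ALA colitis, -0.27 and -1.15 in fish oil colitis, -2.76 and -1.06 in n-6 colitis, and -1.68 and -1.35 in healthy colon. The fish oil arrays were above both healthy arrays and above both ALA arrays, and n-6 replicate 1 held the lowest value. The fish oil mean was 0.80 above healthy colon (SE 0.603, adjusted p = 0.994) and 1.20 above n-6 colitis (adjusted p = 0.445). Without 1 array these differences ran from 0.37 to 1.24 and from 0.35 to 2.05. The r between Noxo1 and Nox1 over the 8 arrays was -0.42.

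Nos2, the inducible nitric oxide synthase, had a level of -3.17 and -4.92 in ALA colitis, -2.77 and -3.89 in fish oil colitis, -3.50 and -3.48 in n-6 colitis, and -4.39 and -3.97 in healthy colon. Fish oil and n-6 arrays lay above both healthy arrays, and the ALA arrays held both the highest but 1 and the lowest of the 8 values. The n-6 mean was 0.69 above healthy colon (SE 0.625, adjusted p = 0.666), and the fish oil mean 0.85 above it (adjusted p = 0.994). Without 1 array the fish oil difference of Nos2 ran from 0.29 to 1.41. ALA colitis differed from n-6 colitis by -0.56 (adjusted p = 0.978), a difference smaller than its SE of 0.625.

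Reg3b and Reg3g, secreted lectins of which REG3G is known in mice to kill Gram-positive bacteria, differed more between arrays of a group than between groups. The level of Reg3b was -5.20 and 5.81 in ALA colitis, 7.06 and -2.48 in fish oil colitis, -2.97 and 3.38 in n-6 colitis, and -6.85 and 1.38 in healthy colon. Reg3g lay at -3.69 and 4.52 in ALA colitis, 6.23 and -3.24 in fish oil colitis, -3.14 and 2.84 in n-6 colitis, and -4.85 and 2.54 in healthy colon. In every group 1 array was high and the other low for both genes. The high array was replicate 2 in ALA colitis, n-6 colitis and healthy colon, and replicate 1 in fish oil colitis. ALA replicate 1 and healthy replicate 1 were not well above background for Reg3b.

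If each healthy array holds the full pool, the gap in healthy colon is between arrays that carry the same 6 rats. It was 8.23 for Reg3b and 7.39 for Reg3g on the log2 scale. Reg3g was well above background on all 8 arrays. For Reg3b the low healthy array was not, and with its reading raised to the lowest signal well above background on that array the gap was 7.03. The SD within groups, pooled over the 4 groups, was 6.33 for Reg3b, the largest of the 18170 genes tested, and 5.56 for Reg3g, which ranked 4. With the dim healthy reading of Reg3b limited in this way its SD was 6.15, still rank 1. The dim ALA reading of Reg3b already exceeded the floor of its array and was kept, so the ALA gap stayed at 11.01. Over all genes the median SD was 0.43 and the 95th percentile 1.16. The genes ranked 2, 3 and 5 were Atp12a, Fxyd4 and Osr2. With this spread the difference of Reg3b between n-6 colitis and healthy colon, 2.94, had an SE of 4.79 (adjusted p = 0.827). The largest difference of Reg3b was 5.03 between fish oil colitis and healthy colon (adjusted p = 0.994), and without 1 array it ran from 0.25 to 9.80. Reg3g differed by 2.65 there (SE 4.21, adjusted p = 0.994), and without 1 array from -2.09 to 7.39. Neither direction nor size can be read for these genes from 2 arrays a group.

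Reg3b is also known as a protein of the injured pancreas. The 5 pancreas markers had mean levels of -4.98 and -5.90 in ALA colitis, -5.29 and -5.44 in fish oil colitis, -6.26 and -5.79 in n-6 colitis, and -5.28 and -6.18 in healthy colon. Pnlip, the pancreatic lipase, was not well above background on any of the 8 arrays. Of the 5 markers, 3 and 1 were well above background in ALA colitis, 0 and 2 in fish oil colitis, 1 and 1 in n-6 colitis, and 2 and 3 in healthy colon. Their means thus rest largely on readings near background and do not compare pancreas content. The part of these markers in the Reg3b values was not tested.

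**Figure D2:**
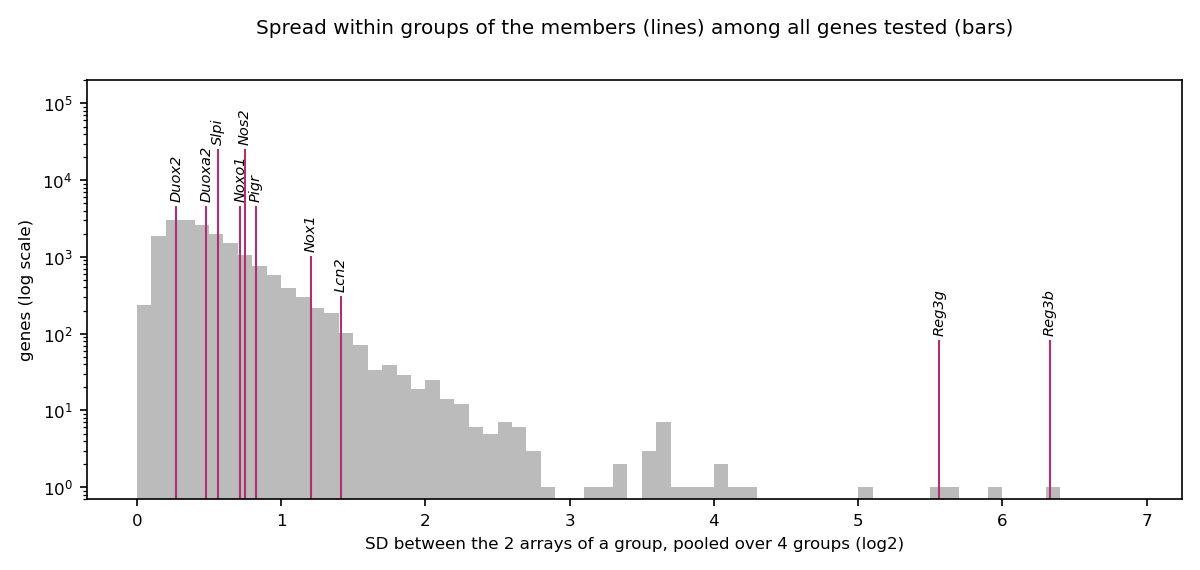
SD of the log2 level between the 2 arrays of a group, pooled over the 4 groups, with the number of genes on a log scale. Bars are the 18170 genes tested and lines mark the members; line heights carry no value. Reg3b at 6.33 and Reg3g at 5.56 lie far to the right of the median of 0.43, and Duox2 at 0.27 lies left of it.

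The Reg3b and Reg3g probes are shown because these genes are close relatives, and a probe could read the RNA of both. The Reg3b probe lies in parts between chr4:112357807-112358789 on the plus strand and the Reg3g probe at chr4:112418369-112418428 on the minus strand, on rn4. Their first 30 bases were as follows.
Reg3b: cagcttgtcaagatcttctggatttctaag
Reg3g: caatgggaagatcaacaacaacaacaaaaa
The full probes of 60 bases were 49.3% identical when aligned, and their longest shared run was 6 bases.

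Both genes moved together over the 8 arrays (Pearson r = 0.98), so their promoters are shown, 250 bases before the start of each gene from RefSeq on GRCr8. Reg3b is at chr4:112419526-112419775 on the plus strand and Reg3g at chr4:112484739-112484988 on the minus strand, both written 5′ to 3′ toward the gene. Capitals mark the motif matches.
Reg3b: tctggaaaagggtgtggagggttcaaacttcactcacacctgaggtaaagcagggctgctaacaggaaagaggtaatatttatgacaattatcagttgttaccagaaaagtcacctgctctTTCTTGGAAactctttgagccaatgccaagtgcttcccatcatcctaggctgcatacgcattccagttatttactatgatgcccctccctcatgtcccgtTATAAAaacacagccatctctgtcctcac
Reg3g: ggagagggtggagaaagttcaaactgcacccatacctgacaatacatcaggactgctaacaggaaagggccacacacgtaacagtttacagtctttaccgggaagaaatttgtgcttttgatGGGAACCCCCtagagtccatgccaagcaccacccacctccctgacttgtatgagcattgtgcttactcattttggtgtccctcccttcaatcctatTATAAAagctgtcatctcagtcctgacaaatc
The windows were 65.4% identical, with a longest shared run of 15 bases. Both hold a TATA box (TATAAA), 29 to 24 bases before the start in Reg3b and 32 to 27 bases before it in Reg3g. Reg3b has a STAT motif (TTCNNNGAA, matched as TTCTTGGAA) at 129 to 121 bases before the start. Reg3g has no STAT match but a match to the NF-kB consensus, GGGAACCCCC as written above and read on the opposite strand, at 128 to 119 bases, nearly the same distance. Searched on both strands in 33469 RefSeq promoters of the same length, the TATA box occurred in 12.9%, the STAT motif in 7.67% and the NF-kB consensus in 3.54%.

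The RefSeq table held promoters of 7 of the 10 genes. Besides Reg3g, the NF-kB consensus matched in Nox1 and Lcn2. Lcn2 also held the C/EBP motif (TTGCNNAA), which 9.22% of all promoters hold, and Duox2 an AP-1 motif (TGANTCA), which 6.34% hold. Duox2 had a TATA box on the opposite strand as well. The windows of Noxo1 and Pigr held no match to the 5 motifs. A match is a string of letters and not evidence of binding, and the lack of a match covers this window only.

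Lcn2, which binds bacterial siderophores, had a level of -3.94 and -1.96 in ALA colitis, -2.85 and -5.95 in fish oil colitis, -3.36 and -4.91 in n-6 colitis, and -3.85 and -4.12 in healthy colon. The highest value was on ALA replicate 2 and the lowest on fish oil replicate 2, and every colitis group overlapped with healthy colon. N-6 replicate 2 was not well above background. The n-6 and healthy means differed by -0.15 (SE 1.099, adjusted p = 0.967), and the ALA mean was 1.03 above healthy colon (adjusted p = 0.869), or 0.047 to 2.02 without 1 array. With an SD within groups of 1.41, Lcn2 ranked 385 of 18170 genes in spread.

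Slpi, the leukocyte protease inhibitor, separated fish oil colitis from the other colitis groups with no overlap of the arrays. Its level was 2.53 and 1.80 in ALA colitis, -0.04 and -0.30 in fish oil colitis, 2.71 and 1.76 in n-6 colitis, and 1.05 and 0.04 in healthy colon. All ALA and n-6 arrays lay above all fish oil and healthy arrays, and both fish oil arrays were below healthy colon. The fish oil and n-6 means differed by -2.40 (SE 0.499, adjusted p = 0.408), which makes the n-6 mean signal 5.29-fold that of fish oil. The ALA mean was 2.33 above the fish oil mean (SE 0.499, adjusted p = 0.476), and the ALA and n-6 means differed by -0.07 (adjusted p = 0.994). Against healthy colon the n-6 mean was 1.69 higher (adjusted p = 0.224), the ALA mean 1.62 higher (adjusted p = 0.731), and fish oil differed by -0.72 (adjusted p = 0.994). When each array was left out in turn, the difference between fish oil and n-6 colitis stayed between -2.88 and -1.93, with an adjusted p from 0.0711 to 0.935.

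Markers of neutrophils, whose proteases SLPI blocks, were measured on the same arrays. Of 8 neutrophil markers, Elane and Cxcr2 were not well above background on any array. S100a9, which passed on all 8, had a level of 0.12 and -1.63 in ALA colitis, -0.49 and -1.10 in fish oil colitis, 0.67 and -0.97 in n-6 colitis, and -2.19 and -3.33 in healthy colon. The mean level of the 8 markers ran from -5.24 to -4.75 in ALA colitis, -5.69 to -4.68 in fish oil colitis, -4.86 to -4.38 in n-6 colitis and -6.37 to -5.37 in healthy colon. Well above background were 3 and 4 markers in ALA colitis, 1 and 3 in fish oil colitis, 5 and 3 in n-6 colitis, and 3 and 3 in healthy colon. The means thus rest largely on readings near background and do not compare neutrophil content. The part of these markers in the Slpi values was not tested.

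Pigr, the carrier of IgA and IgM across the epithelium, had 3 probes, and they did not give the same result. The 2 brighter probes lie at chr13:43804826-43804908 and chr13:43804771-43804869, which overlap, and the dimmest, in parts, between chr13:43802502-43802936, all on the plus strand of rn4. The first 30 bases of each are shown because 2 of them consist of A and G only. Capitals mark the repeated unit GAGGAG. The brightest Kcng1 probe is added for comparison.
Pigr probe 1: GAGGAGGAGGAGGAGgaaGAGGAGGAGGAG
Pigr probe 2: gGAGGAGaaggaggaaGAGGAGGAGGAGga
Pigr probe 3: ccagagtccgacatcggaagaatgtagacc
Kcng1: aggaagaagaagaagaagGAGGAGGAGGAG
Probes 1 and 2 were 100% purine over their whole length, and probe 3 held pyrimidines as well.

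The array held 46 probes with at least 90% purines. Beside both Pigr repeats, 44 of these were well above background on all 8 arrays, and their r with Pigr probe 1 over the arrays ran from 0.76 to 0.999, with a median of 0.983. The median r of the 15468 other probes well above background on all arrays was 0.11, and that of Pigr probe 3 was 0.67. The level of Pigr probe 1 was 6.22 and 5.98 in ALA colitis, 8.29 and 6.47 in fish oil colitis, 5.13 and 6.21 in n-6 colitis, and 6.80 and 5.86 in healthy colon. The median of the other purine repeat probes was 3.68 and 3.78 in ALA colitis, 6.30 and 4.11 in fish oil colitis, 2.86 and 4.33 in n-6 colitis, and 4.42 and 3.27 in healthy colon. Fish oil replicate 1 was the highest and n-6 replicate 1 the lowest in both.

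Probe 3 had a level of 0.31 and -0.84 in ALA colitis, 0.62 and 0.31 in fish oil colitis, -2.96 and -0.84 in n-6 colitis, and 1.31 and 0.37 in healthy colon. Both n-6 arrays were below both healthy arrays and below both fish oil arrays, and n-6 replicate 1, which had the lowest epithelial markers, was the lowest. For these comparisons limma was fitted to each probe on its own, with the adjustment over 20801 probes. The n-6 and healthy means differed by -2.74 on probe 3 (SE 0.744, adjusted p = 0.195) and by -0.66 on probe 1 (SE 0.674, adjusted p = 0.701). The fish oil and n-6 means were 2.37 apart on probe 3 and 1.71 on probe 1 (adjusted p = 0.405 for each), both higher in fish oil colitis. Without 1 array the value of probe 1 ran from 0.80 to 2.61. Fish oil colitis and healthy colon differed by -0.38 on probe 3 and by 1.05 on probe 1, opposite signs with neither past the threshold. Values of Pigr by its brightest probe are therefore also those of a purine repeat, and the plot of Pigr probes sets them side by side.

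**Figure D3:**
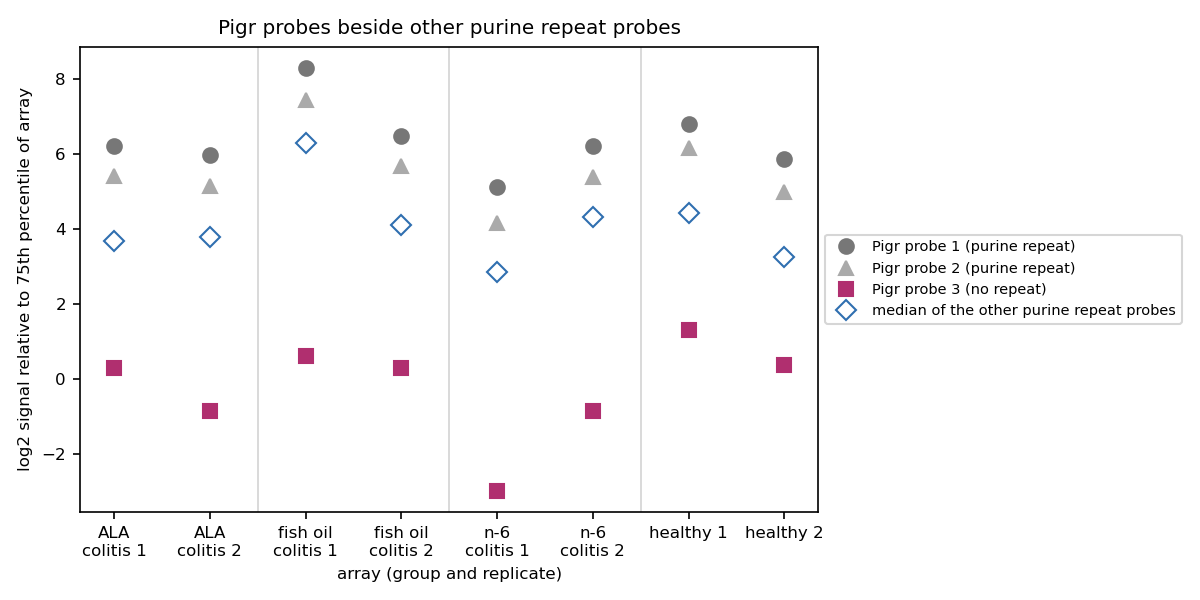
Log2 signal relative to the 75th percentile of the array for the 3 Pigr probes and the median of the other purine repeat probes, on each of the 8 arrays (tick labels give the group and the replicate). Pigr probes 1 and 2 and the repeat median share their highest array, fish oil replicate 1, while probe 3 is highest on healthy replicate 1 at 1.31 and lowest on n-6 replicate 1 at -2.96.

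PIGR needs polymeric IgA to carry, and B cell markers varied strongly between arrays. The mean level of the 5 markers on the array was -1.69 and 0.36 in ALA colitis, -4.17 and -6.34 in fish oil colitis, 0.32 and -3.95 in n-6 colitis, and -4.29 and -4.80 in healthy colon. Both ALA arrays and n-6 replicate 1 were high. Cd79a, part of the B cell receptor, had an 18.7-fold higher mean signal in ALA colitis than in healthy colon (adjusted p = 0.731). This is the measured fold and not a lower bound. Cd79a was not well above background on any healthy or fish oil array. It passed the filter on dim signal only through ALA colitis, the group where it was high, so the fold is a description only.

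Over all 10 genes, n-6 colitis was first set against healthy colon, since both groups ate sunflower oil. By limma's adjusted p, 0 of 10 members passed, as against 7 of 18170 genes, or 0.0385%. At an unadjusted p under 0.05, 3 members were higher (Duox2, Duoxa2 and Slpi) and 0 lower, where 6.59% of all genes were higher and 7.74% lower. In 4 members, these 3 and Nos2, both n-6 arrays were above both healthy arrays, and in 0 members below. Among all genes 23.8% lay above without overlap and 21.7% below. The median difference of the members was 0.82, and that of all genes was 0.026. The members' median was -0.099 without healthy replicate 1 and 0.20 without n-6 replicate 2. It was 0.22 with normexp background and quantile normalization and 0.27 with each probe on its own. With purine repeat probes left out, Pigr became a lower member at that unadjusted level, and the counts were 3 higher and 1 lower.

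ALA colitis against n-6 colitis gave 0 of 10 members by adjusted p, where 0.0275% of all genes passed. At an unadjusted p under 0.05 there were 0 members in either direction, and 5.81% of all genes (3.2% higher, 2.61% lower). Both ALA arrays were below both n-6 arrays in 2 members, Duox2 and Duoxa2 (13.1% of all genes), and above in 0 (16.9%). The median difference was 0.045 over the members and 0.071 over all genes, and leaving out 1 array of either group moved it. Without replicate 1 or 2 of the ALA arrays it was 0.44 or -0.083, and without replicate 1 or 2 of the n-6 arrays -0.53 or -0.068.

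Fish oil colitis against n-6 colitis also gave 0 of 10 members by adjusted p, where 0.0385% of all genes passed. Slpi was lower and Pigr probe 1 higher at an unadjusted p under 0.05, where 6.0% of all genes were lower and 5.98% higher. The fish oil arrays were below both n-6 arrays in Duox2 and Slpi (23.6% of all genes) and above them in Pigr, on probe 1 and on probe 3 (23.0%). These counts are near those of all genes. The median difference was -0.051 over the members and 0.0083 over all genes. It was -1.17 without fish oil replicate 1, 1.0045 without fish oil replicate 2, -0.17 without n-6 replicate 1 and -0.082 without n-6 replicate 2. The plot of differences gives these 3 comparisons.

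**Figure D4:**
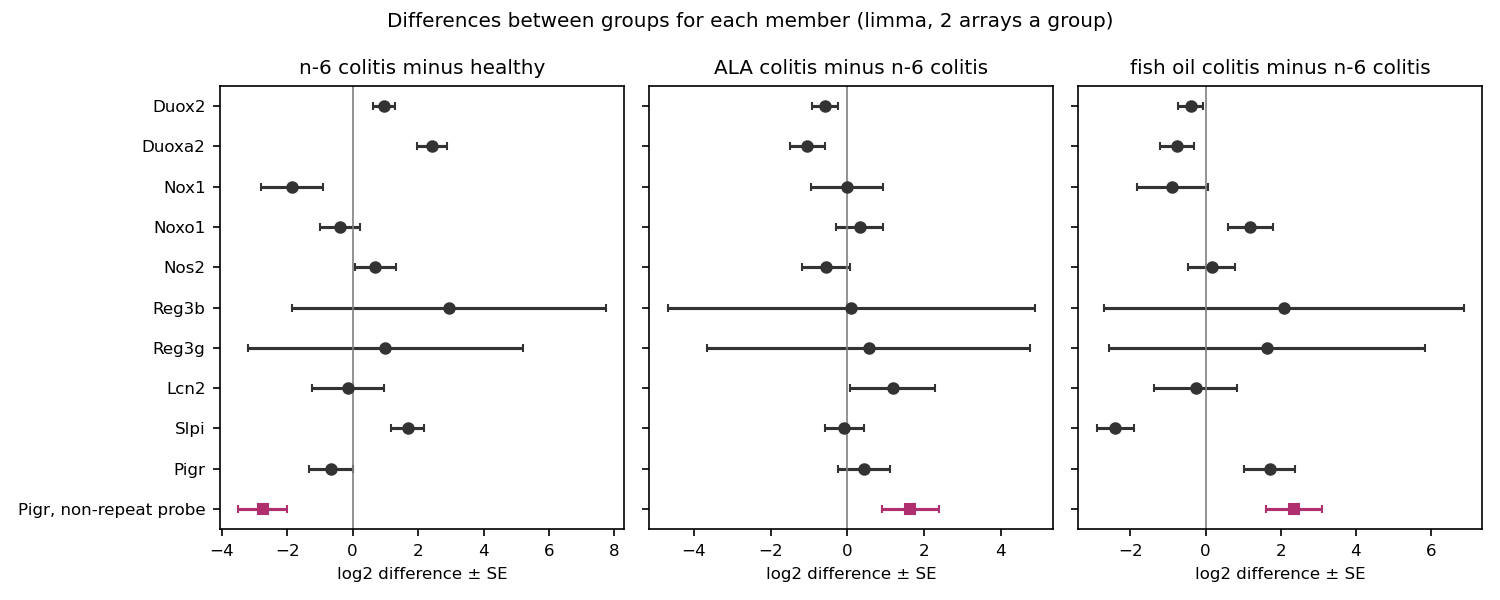
Log2 difference of each member (points, bars are ± 1 SE of the limma fit) for n-6 colitis minus healthy colon, ALA minus n-6 colitis and fish oil minus n-6 colitis; each panel has its own axis. The square is the Pigr probe that is no purine repeat. Duoxa2 at 2.42 and Slpi at 1.69 lie to the right of 0 for n-6 colitis minus healthy colon, Slpi at -2.40 lies to the left for fish oil minus n-6 colitis, and the bars of Reg3b and Reg3g are the widest.

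Both n-3 groups were also set against healthy colon, which shares its arrays with the comparison of n-6 colitis. In ALA colitis 0 of 10 members passed by adjusted p, as did 0.0% of all genes. Duoxa2 and Slpi were higher at an unadjusted p under 0.05 (4.37% of all genes), and 0 members were lower (2.17%), where 6.54% of all genes differed in either direction. The same 2 members were above healthy colon without overlap (22.5% of all genes) and 0 below it (18.1%), and the median difference was 0.71 against 0.038 over all genes. It was -0.031 without ALA replicate 2 and 0.082 without healthy replicate 1. In fish oil colitis 0 members and 0.0% of all genes passed by adjusted p. Duoxa2 was higher (1.77% of all genes) and Nox1 lower (2.13%) at an unadjusted p under 0.05, or 3.9% of all genes in either direction. Fish oil arrays were above healthy colon without overlap in Duox2, Duoxa2, Noxo1 and Nos2 (18.3% of all genes) and below it in Nox1 and Slpi (20.5%). The median difference was 0.83 against 0.0028 over all genes. It was 0.20 without fish oil replicate 1 and 1.33 without fish oil replicate 2.

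ALA colitis against fish oil colitis gave 0 of 10 members and 0.0% of all genes by adjusted p. Slpi was higher at an unadjusted p under 0.05 (6.62% of all genes), and 0 members were lower (2.99%), against 9.6% of all genes in either direction. The ALA arrays were above the fish oil arrays in Nox1 and Slpi (25.3% of all genes) and below them in Noxo1 and Pigr probe 1 (20.4%). On Pigr probe 3 the ALA and fish oil arrays overlapped. The median difference was -0.50 against 0.015 over all genes. It was 0.45 without ALA replicate 1, 0.081 without ALA replicate 2, 0.65 without fish oil replicate 1 and -1.003 without fish oil replicate 2. For the mean of the 3 colitis groups against healthy colon, 0 members and 0.0% of all genes passed. Duoxa2 was higher (3.98% of all genes) and Nox1 lower (4.05%) at an unadjusted p under 0.05, with 8.02% of all genes in either direction. In 1 member, Duoxa2, all 6 colitis arrays were above both healthy arrays, as in 5.09% of all genes, and in 0 members below them (5.27%). The median difference was 0.60 against 0.037 over all genes. It was 0.27 without fish oil replicate 1 and 0.32 without healthy replicate 1.

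For the members that spanned at least 2 on the log2 scale, the 3 named genes with the highest r over the 8 arrays were sought among 13176 named genes, as a description with no test. No smallest range was asked of the like genes. The highest of so many values of r over 8 arrays can be high between unrelated genes. Duoxa2 was most like Anxa2, an annexin (r = 0.992), then St3gal4, a sialyltransferase (0.989), and Csf2ra, the GM-CSF receptor subunit (0.984). Anxa2 had a level of 6.71 and 6.16 in ALA colitis, 6.83 and 6.40 in fish oil colitis, 6.76 and 7.19 in n-6 colitis, and 5.61 and 5.63 in healthy colon. Like Duoxa2, it was highest on n-6 replicate 2 and lowest on the healthy arrays. St3gal4 had the wider range, from 2.52 on healthy replicate 2 to 5.69 on n-6 replicate 2.

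Reg3b was most like Reg3g (r = 0.981), then Ubqln1 (0.976) and Nr0b2 (0.947), a nuclear receptor that lacks a DNA-binding domain. For Reg3g, Nr0b2 (0.971) came after Reg3b, followed by Cog5 (0.962). Ubqln1 and Cog5 ranged over only 0.58 and 0.51 on the log2 scale, against 13.92 for Reg3b and 11.08 for Reg3g. The level of Nr0b2 was -3.36 and 1.18 in ALA colitis, 1.58 and -3.32 in fish oil colitis, -3.20 and -0.67 in n-6 colitis, and -2.94 and -0.81 in healthy colon. It was high on the same 4 arrays as Reg3b.

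Slpi was most like Sub1 (r = 0.975), Nvl (0.974) and Mmp19, a matrix metalloprotease (0.962). Noxo1 was most like Msln, mesothelin (0.989), and Mcoln1, a lysosomal channel (0.984). Nos2 was most like Adamts2, a procollagen protease (0.968), Or51a7b, annotated as an olfactory receptor (0.951), and Fgf1, a growth factor (0.942). Lcn2 was most like Atp13a2 (0.933), Vom2r75 (0.925) and Nubpl (0.923), and Nox1 most like Zp2 (0.928), Tnfsf14 (0.923) and Mrps34 (0.920). Pigr probe 1 was most like Kcng1 (0.998), whose brightest probe is also a purine repeat, then Uqcrq (0.987) and Ubtf (0.986). Pigr probe 3 was most like Relch (0.984), Cxadrl1 (0.982) and Sema6c (0.980), other genes than those of probe 1.

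Genes of the same pathways were read from 6 further lists. In every list and each of the 7 comparisons, 0 genes passed limma's adjusted p, and the counts that follow are at an unadjusted p under 0.05. Of 11 tested oxidase family genes and partners, 5 were higher and 0 lower in n-6 colitis against healthy colon, with a median difference of 0.75, where 6.59% of all genes were higher and 7.74% lower. In fish oil against n-6 colitis 0 were higher and 2 lower (5.98% and 6.0% of all genes), with a median of -0.61. In ALA against n-6 colitis 1 was higher and 0 lower (3.2% and 2.61% of all genes). The medians over all genes were 0.026, 0.0083 and 0.071. Rac2, a GTPase of the phagocyte oxidase, differed by 1.48 between n-6 colitis and healthy colon (adjusted p = 0.222). Cybb, the phagocyte oxidase subunit, was 1.44 higher in ALA colitis than in healthy colon (adjusted p = 0.681) and Cyba, its partner and that of NOX1, 0.94 higher in fish oil colitis (adjusted p = 0.994). For Cybb all 6 colitis arrays were above both healthy arrays, as in 5.09% of all genes. Lpo, lactoperoxidase, which uses hydrogen peroxide against bacteria, was 2.32 higher in ALA than in n-6 colitis (SE 0.636, adjusted p = 0.836). Duox1 differed by -2.83 between fish oil and n-6 colitis (SE 0.489, adjusted p = 0.408), Ncf4 by -1.38 (adjusted p = 0.409), and Duoxa1 was 1.42 higher in ALA than in fish oil colitis (adjusted p = 0.476). In fish oil colitis 1 of 2 arrays was well above background for Duox1 and for Duoxa1.

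Of 9 tested genes of nitric oxide and arginine metabolism, 0 were higher and 0 lower in n-6 colitis against healthy colon (6.59% and 7.74% of all genes). Ddah2, which breaks down an inhibitor of nitric oxide synthases, differed by -1.11 between ALA and n-6 colitis (SE 0.317, adjusted p = 0.836). Nos3, the endothelial synthase, differed by -1.50 between fish oil and n-6 colitis (adjusted p = 0.409) and by -1.45 between fish oil colitis and healthy colon (adjusted p = 0.994), with 1 of 2 fish oil arrays well above background. Arg1, arginase, was 1.0005 higher in n-6 colitis than in healthy colon (adjusted p = 0.512). Gch1, which makes the synthase cofactor, was 0.99 higher in ALA colitis than in healthy colon (adjusted p = 0.794), and Ass1, which remakes arginine, 1.04 higher in fish oil colitis (adjusted p = 0.994).

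Of 19 tested genes for other antimicrobial and mucosal proteins, 6 were higher and 1 lower in n-6 colitis, 6 higher and 0 lower in ALA colitis, and 4 higher and 0 lower in fish oil colitis, each against healthy colon. The medians of these differences were 0.98, 0.93 and 0.84, against 0.026, 0.038 and 0.0028 over all genes. Among all genes 6.59% were higher and 7.74% lower in n-6 colitis, 4.37% and 2.17% in ALA colitis, and 1.77% and 2.13% in fish oil colitis. Retnlb, a bactericidal goblet cell protein, had a level of 3.65 and -0.59 in ALA colitis, 3.26 and 3.17 in fish oil colitis, 3.30 and 3.20 in n-6 colitis, and -0.90 and -6.32 in healthy colon. All 6 colitis arrays were above both healthy arrays, and the n-6 mean was 6.86 higher (SE 1.86, adjusted p = 0.205). Itln1, a lectin, was 4.40 higher in ALA colitis than in healthy colon (SE 1.07, adjusted p = 0.668), and Lyz2, a lysozyme, 1.16 higher (adjusted p = 0.681). For both genes all 6 colitis arrays were above both healthy arrays, as in 5.09% of all genes. S100a8, a neutrophil and epithelial calprotectin subunit, was 3.63 higher in n-6 colitis than in healthy colon (adjusted p = 0.205) and differed by -2.38 between fish oil and n-6 colitis (adjusted p = 0.410). For S100a8, 1 of 2 fish oil arrays and 1 of 2 healthy arrays were well above background. Ltf, lactoferrin, and Wfdc2, a relative of SLPI, were 1.27 and 1.38 higher in ALA than in n-6 colitis (adjusted p = 0.920 and 0.931), and 1 of 2 n-6 arrays was well above background for Ltf. Pglyrp1, which binds bacterial cell walls, differed by -0.87 between fish oil and n-6 colitis (adjusted p = 0.425). It was well above background on 1 of 2 n-6 arrays and on 0 of 2 fish oil arrays, so these are readings near background.

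Of 4 tested genes tied to IgA, 0 were higher and 0 lower in n-6 colitis against healthy colon and in either n-3 group against n-6 colitis, where the shares of all genes were those given above. Mzb1, a plasma cell chaperone, was at least 8.94-fold higher in ALA colitis than in healthy colon (adjusted p = 0.771). Like Cd79a, it passed the filter only through ALA colitis, the group where it was high. Cd79a had a level of -0.56 and -5.49 in n-6 colitis and -5.08 and -7.17 in fish oil colitis (adjusted p = 0.444). The arrays overlapped, and 1 of 2 n-6 arrays was well above background. Tnfsf13, a survival factor of plasma cells, was 0.68 higher in fish oil than in n-6 colitis (adjusted p = 0.505).

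Of 25 tested inducers and signalling genes, 7 were higher and 1 lower in n-6 colitis against healthy colon, and 0 higher and 4 lower in fish oil against n-6 colitis. Among all genes 6.59% were higher and 7.74% lower in n-6 colitis against healthy colon, and 5.98% higher and 6.0% lower in fish oil against n-6 colitis. Cebpd, a transcription factor of the acute phase, had a level of 5.22 and 3.06 in ALA colitis, 4.94 and 3.20 in fish oil colitis, 5.88 and 5.71 in n-6 colitis, and 2.20 and 1.54 in healthy colon. Its n-6 mean was 3.93 above healthy colon (SE 0.809, adjusted p = 0.143), with all 6 colitis arrays above both healthy arrays, as for Duoxa2. Il1b and Tnf, inflammatory cytokines, differed by -2.03 and -1.08 between fish oil and n-6 colitis (adjusted p = 0.409 for each). Tlr2, a sensor of bacterial lipoproteins, differed by -1.35 between ALA and n-6 colitis (adjusted p = 0.855). Ifng, interferon gamma, had a 3.34-fold lower mean signal in n-6 colitis than in healthy colon (adjusted p = 0.126), as measured and not as a lower bound. It was not well above background on either n-6 array. It passed the filter only through healthy colon, the group where it was high, so the fold is a description only.

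Of 12 genes that remove hydrogen peroxide or superoxide, 2 were higher and 0 lower in n-6 colitis against healthy colon (6.59% and 7.74% of all genes), with a median difference of 0.34 (0.026 over all genes). Sod2, the mitochondrial superoxide dismutase, was 1.21 higher (adjusted p = 0.294) and Sod3, the extracellular form, 0.98 higher (adjusted p = 0.333). Sod3 differed by -0.92 between ALA and n-6 colitis (adjusted p = 0.855), and Gpx3, a secreted glutathione peroxidase, was 1.26 higher there (adjusted p = 0.888). Gpx1, the common glutathione peroxidase, differed by -0.97 between fish oil and n-6 colitis (adjusted p = 0.409), and Sod2 by -1.04 (adjusted p = 0.415). Gpx2, the gut epithelial glutathione peroxidase, had a level of 7.70 and 6.92 in ALA colitis, 8.62 and 7.12 in fish oil colitis, 6.02 and 7.96 in n-6 colitis, and 6.43 and 5.63 in healthy colon. Its fish oil mean was 1.84 above healthy colon (SE 0.766, adjusted p = 0.994), and n-6 replicate 1 was the colitis array that overlapped with healthy colon.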

How the data were processed

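Agilent Feature Extraction 11.5.1.1 made the spot intensity values, per the file headers, with background subtracted and no scaling between arrays. Control and outlier spots were left out, spots of a probe averaged, and the 75th percentile of log2 signal of each array subtracted. Probes entered if at least 1 group had both arrays well above background (20801 of 30367), and the brightest probe stood for its gene. The authors also deposited a table of log2 values per symbol, used as an alternative. Its column medians ran from -3.182 to -2.892 (75th percentile 0.0032 to 0.00898), and r with the log2 signal of the same array was 0.990 to 0.993, which settles scale, centring and direction. How it joins probes per symbol is not given in these sources.

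Groups were compared with limma 3.58.1 in R 4.3.3 over all 8 arrays (4 residual and 3.02 prior degrees of freedom), with Benjamini-Hochberg adjustment over 18170 genes. The procedure was tested on simulated data. A fold is written "at least" where each dim reading was raised to the lowest signal that was well above background on its array. Dim readings of Cd79a in healthy colon and of Ifng in n-6 colitis already exceeded that floor and were kept. Their folds are those measured and are not lower bounds. Accessions and symbols were named through RefSeq GRCr8 (18355 probes by accession, 8611 kept the name in the files). Positions of probes are those of the files, on rn4. Named genes are all members, up to 4 context genes past the threshold per list and comparison or else the 2 with the smallest p, and the 3 genes most like a member, of which 1 is not reported here. For the comparisons with healthy colon and of ALA with fish oil, only some of these are printed. Members and lists were chosen with earlier results of these data known. Members are described by counts and medians, with no test over the list.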

Additional observations from a re-analysis of the deposited data

How the results depend on the processing

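Each comparison was refitted under 21 alternatives of background correction, scaling, filter, probe choice, model and left-out array, of which leaving out purine repeat probes was chosen after seeing the data. In 0 of 1453 member values did the adjusted p fall under 0.05, and the smallest was 0.0697, for Duoxa2 in n-6 colitis against healthy colon. Of these values 1375 kept their sign. Where the difference exceeded 1, 23 of 661 took the opposite sign: these were Reg3b and Reg3g without 1 array, Lcn2 between ALA and fish oil colitis without fish oil replicate 2, and Pigr by its probe 3. The count of all genes past the threshold ran from 0 to 29 for n-6 colitis against healthy colon (7 in the design used), from 0 to 7 for ALA against n-6 colitis (5) and from 0 to 8 for fish oil against n-6 colitis (7). For the comparisons with healthy colon these counts reached at most 1 in ALA colitis, 2 in fish oil colitis and 1 for the mean of the 3 colitis groups, and 1 for ALA against fish oil colitis. Leaving out 1 array moved the median difference of the members by more than its SD of 0.64 between arrays in the comparisons whose ranges without 1 array are given below. With no array left out, it moved by more than that SD only with each probe on its own, to 0.68 for fish oil against n-6 colitis. Smaller moves that still exceeded 1.5 times were seen with normexp background and quantile normalization (0.22 in n-6, 0.30 in ALA, 0.38 in fish oil colitis and 0.31 for the mean of the 3 colitis groups, each against healthy colon, and -0.25 for ALA against fish oil colitis) and with each probe on its own (0.27 in n-6 colitis, 0.26 in ALA colitis and 0.36 for the mean of the 3, each against healthy colon). Against n-6 colitis the median took both signs, from -0.20 to 0.21 in ALA colitis and from -0.18 to 0.68 in fish oil colitis over the settings that left out no array. Against healthy colon the median was 0.38 for ALA colitis with genes well above background on all 8 arrays. It was 0.55 for fish oil colitis in the deposited table, also against healthy colon. Without 1 array it ran from -1.17 to 1.0045 for fish oil against n-6 colitis, from -0.099 to 0.92 for n-6 colitis against healthy colon, from -0.031 to 0.71 for ALA colitis against healthy colon, and from -1.003 to 0.65 for ALA against fish oil colitis. The fit on the compared groups alone gave no value for the mean of the 3 colitis groups, which uses all arrays.

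The labels number the arrays of each group, and deviations of same-numbered arrays correlated from -0.168 to 0.47, so the numbers are not taken to pair arrays. With the replicate block, 0 members passed in each comparison, and the median difference of the members in n-6 colitis against healthy colon was 0.82, as without it. Signal over background limits Nox1, Reg3b and Lcn2, each with at least 1 array not well above background, and the 2 arrays of a group limit every value.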
